A study of Mus musculus with 3 samples.

Results

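Etv1, Etv4 and Etv5 form the PEA3 group of ETS transcription factors, and all 3 were found by symbol among the 32285 genes counted in mouse embryonic stem cells given FGF4. The study used E14tg2a cells, an established mouse embryonic stem cell line, with both copies of Fgf4 mutated (Fgf4 -/-). Cells seeded in ES medium with LIF were moved for 24 h to the defined medium N2B27 with heparin and Chiron, an inhibitor of GSK3, plus a dose of 0, 5 or 50 ng/ml of FGF4. Heparin, Chiron and the Fgf4 mutation were thus shared by every group, the controls included, and the groups differ in the labels by ligand dose alone. The labels name no clone. Each dose was 1 droplet library of 3′ transcript ends, so no test between doses was possible. Every interval below is a 95% interval for counting error only, and "higher" or "lower" describes these libraries.

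The 3 genes were chosen by symbol and selected on their UMI levels over the 3 doses (Etv4 graded, Etv5 flat), so their differences between doses are a description and support nothing further. The libraries held 373, 874 and 975 cells at 0, 5 and 50 ng/ml, with 42726514, 75184072 and 81409975 unique molecular identifiers (UMIs, each 1 captured transcript end) and medians of 107873, 91764 and 87334 UMIs per cell. No cell barcode was shared between libraries. All 7 embryonic stem cell markers stood at 49.5 CPM or more in every library (CPM, UMIs per 1000000 UMIs of the library). All 9 fibroblast and all 6 primitive endoderm markers stayed below 5 CPM everywhere, with summed levels of 3.86 to 4.20 CPM and 1.49 to 3.78 CPM. Of the primitive endoderm markers, Gata6 had 15, 5 and 178 UMIs and Sox17 had 11, 4 and 23 from the lowest dose up. The 5 neuroectoderm markers summed to 125, 41.3 and 37.6 CPM, the 5 primitive-streak markers to 8.50, 18.0 and 23.2 CPM and the 6 trophectoderm markers to 8.17, 11.6 and 14.1 CPM from the lowest dose up. Genes within each list differed in direction. Tubb3 stood at 107, 31.4 and 27.6 CPM, but Pax6 at 5.85, 6.41 and 6.36 CPM. T stood at 2.81, 9.52 and 12.2 CPM and Eomes at 2.36, 6.92 and 9.47 CPM, but Gsc at 2.11, 0.439 and 0.184 CPM. Cdx2 stood at 3.09, 8.70 and 11.4 CPM, but Krt8 at 3.72, 2.10 and 2.13 CPM. The part of these marker shifts in the levels of the PEA3 factors was not tested.

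PEA3 factors bind GGAA-containing DNA through their ETS domain and act mostly as activators. FGF receptors signal through RAS and ERK, and ERK signalling raises PEA3 gene transcription, in part by relieving repression by Capicua, and also modifies the proteins. The ubiquitin ligase containing COP1 and DET1 marks the PEA3 proteins for destruction. In embryos the group is known as a readout of FGF signalling in limb, kidney and lung, and in embryonic stem cells Etv4 and Etv5 are known for a part in proliferation and in leaving the naive state.

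The stretches of DNA before 2 annotated starts are shown because they set a member with a flat level, Etv5, beside one that followed dose, Etv1. RefSeq (GRCm38.p6) gave 4 windows for 2 of the 3 members, and those shown are the ones that overlap no annotated exon. Each is the 250 bases before a transcript start, 5′ to 3′ on the gene's strand, with TGAATG or its reverse complement CATTCA in capitals, the shared core of the octamers TGAATGAA and TGAATGGA that Capicua is known to bind.
Etv5, chr16:22438369-22438618, minus strand, in the first intron of the longest transcript: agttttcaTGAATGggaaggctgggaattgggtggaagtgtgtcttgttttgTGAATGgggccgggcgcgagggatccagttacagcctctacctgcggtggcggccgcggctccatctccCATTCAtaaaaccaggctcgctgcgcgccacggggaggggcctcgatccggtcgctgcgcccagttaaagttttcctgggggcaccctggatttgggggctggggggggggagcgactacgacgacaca
Etv1, chr12:38779832-38780081, plus strand, in an intron of the transcript with the most upstream start: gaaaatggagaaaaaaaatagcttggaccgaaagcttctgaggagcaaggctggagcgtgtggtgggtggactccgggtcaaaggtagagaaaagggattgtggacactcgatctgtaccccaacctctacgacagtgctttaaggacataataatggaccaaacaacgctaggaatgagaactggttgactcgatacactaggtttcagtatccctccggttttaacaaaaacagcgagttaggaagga

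The Etv5 window held the core 3 times on either strand, with first bases at -242, -198 and -129 from the start site, and held neither full octamer. Of 32851 windows of this length in the RefSeq table, 10.9% held the core at least once and 0.131% held it at least 3 times. The other Etv5 window, chr16:22439571-22439820, which overlaps annotated exons, held no copy. Neither Etv1 window held a copy. None of the 4 held CGGAAG (an ETS core, in 13.6% of windows), CTTTGAT (a TCF and LEF core, 3.21%) or TGANTCA (an AP-1 motif, 6.75%), each searched on both strands. These are letter matches, and whether any factor bound there was not measured. Counts of 3′ ends do not show which start a transcript came from. Any relation of the core to dose was not tested.

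Etv4 (ENSMUSG00000017724, mm10 11:101769742-101785371, minus strand) was nearly absent without ligand and higher at each dose step. Its UMIs numbered 50, 3742 and 7240 from the lowest dose up. As levels these were 1.17 CPM (0.869 to 1.54), 49.8 CPM (48.2 to 51.4) and 88.9 CPM (86.9 to 91.0). The 3 levels were in dose order with intervals that did not overlap, and the second step was a 1.79-fold difference (1.72 to 1.86). At 5 ng/ml 55.4% (53.1 to 57.6) of the CPM difference between 0 and 50 ng/ml was present.

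Etv1 (ENSMUSG00000004151, 12:38779380-38870484, plus strand), a member known for roles in neurons and in the heart, also followed dose order, but from a low level already present without ligand. Its UMIs numbered 355, 2006 and 2553, or 8.31 CPM (7.47 to 9.22), 26.7 CPM (25.5 to 27.9) and 31.4 CPM (30.2 to 32.6). The ratio to the library without ligand was 3.21 (2.87 to 3.61) at 5 ng/ml and 3.77 (3.38 to 4.23) at 50 ng/ml. Most of that difference lay in the first step, since 50 over 5 ng/ml was 1.18 (1.11 to 1.25). At 5 ng/ml 79.7% (73.1 to 86.3) of its whole difference was present.

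Etv5 (ENSMUSG00000013089, 16:22381309-22439719, minus strand), known for its part in spermatogonial stem cell renewal, was high without any ligand and did not follow dose order. Its UMIs numbered 7929, 15898 and 15294, or 186 CPM (182 to 190), 211 CPM (208 to 215) and 188 CPM (185 to 191). The middle dose was the highest, at 1.14-fold (1.11 to 1.17) the level without ligand, and 50 ng/ml was at 0.888 of the 5 ng/ml level (0.869 to 0.908). The ratio of 50 over 0 ng/ml had an interval of 0.985 to 1.04 around 1.01. Its value lay on either side of 1 with the way of computing it, at 1.04 by median of ratios and 0.957 by the mean share per cell. The mean share gives every barcode equal weight, those with few UMIs included. With cells filtered on mitochondrial share and depth the ratio of summed UMIs was 1.01.

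Counted against each other, which needs no scaling between libraries, the make-up of the group differed between doses. Etv4 made up 0.627% (0.465 to 0.825) of the UMIs of Etv4 and Etv5 without ligand, 19.1% (18.5 to 19.6) at 5 ng/ml and 32.1% (31.5 to 32.7) at 50 ng/ml. There were 159 UMIs of Etv5 for each UMI of Etv4 without ligand, against 4.25 and 2.11 at the other doses. Etv4 went from the least to the second most counted member, passing Etv1 between 0 and 5 ng/ml. The 3 genes together stood at 195 CPM (191 to 199), 288 CPM (284 to 292) and 308 CPM (304 to 312). Etv5 remained the most counted at each dose, with 95.1%, 73.4% and 61.0% of the group's UMIs. These shares are of counted 3′ ends, 1 per transcript whatever its length, and capture may differ between genes.

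**Figure D1:**
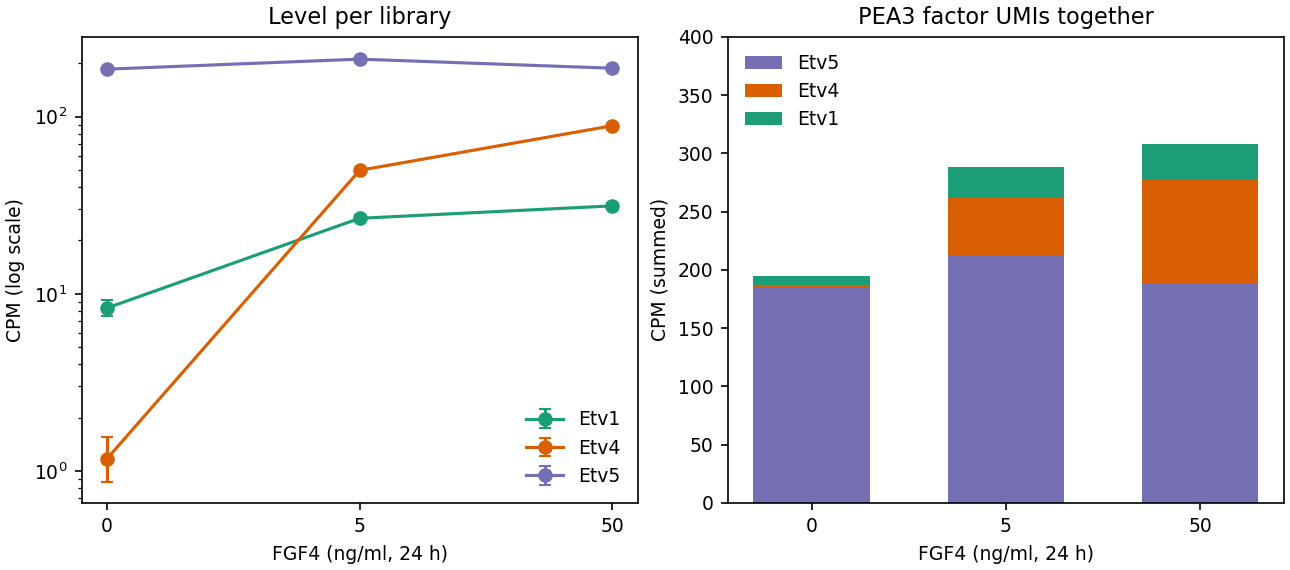
Levels of Etv1, Etv4 and Etv5 in each library. Left, CPM on a log axis against FGF4 dose, with 95% intervals for counting error; right, the same CPM stacked on a linear axis. Etv4 climbs from 1.17 to 49.8 and 88.9 CPM while Etv5 stays between 186 and 211 CPM, and the stack grows from 195 to 308 CPM.

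Of the genes beside the members on their chromosomes, Dhx8 and Dgkb were higher at each dose step and Tra2b was lower at each. Dhx8 and Dgkb both had smaller ratios of 50 over 0 ng/ml than the member they adjoin. Dhx8, an RNA helicase gene 2384 bases to the left of Etv4 and on the other strand, stood at 71.9, 82.6 and 83.7 CPM. Meox1, to the right of Etv4, had 4, 9 and 6 UMIs. Tra2b, a splicing factor gene left of Etv5, stood at 350, 334 and 325 CPM, while Dgkg on the right stayed below 0.40 CPM. Dgkb, a diacylglycerol kinase gene left of Etv1, stood at 0.960, 1.72 and 2.09 CPM, and the predicted noncoding gene Gm34611 on its right had at most 1 UMI per library. No other gene of the annotation (GENCODE M21) overlapped a member.

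Set against all genes, Etv4 lay far out and Etv5 lay in the bulk. Of 9501 genes with at least 5 CPM in at least 1 library, 2.26% stood 2-fold or more above the library without ligand at 5 ng/ml, 2.15% stood as far below, and 4.41% were that far apart in either direction. At 50 ng/ml the shares were 2.63% above, 3.44% below and 6.07% in either direction. Etv1 and Etv4 were past 2-fold on the higher side in both comparisons and Etv5 in neither, a count that their choice fixes. Between 50 and 5 ng/ml 0.211% of genes were past 2-fold above, 0.168% below and 0.379% in either direction, and none of the 3 members was. The median log2 ratio over all these genes was 0.02 for 5 over 0 and -0.01 for 50 over 0.

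Etv4 had less of its difference present at the low dose than most genes that were higher with ligand. Among the 250 genes past 2-fold above at 50 ng/ml, the median share of the difference present at 5 ng/ml was 76.2%, with the middle 50% of genes between 67.3% and 85.9%. Of these genes 21 had a smaller share than Etv4 and 154 a smaller share than Etv1. Of FGF and ERK response genes, the feedback inhibitor Spry4 had 45.2% (41.9 to 48.4) and the ERK phosphatase gene Dusp4 53.7% (47.0 to 60.5), near the 55.4% of Etv4. Spred1, which restrains RAF activation, had 86.2% (80.6 to 91.8) and the cyclin gene Ccnd2 82.9% (78.4 to 87.5), nearer to Etv1. All these values share the library without ligand, so they are given side by side only. Etv4 was also selected for its graded levels over these doses, so its place among the 250 genes is a description only.

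**Figure D2:**
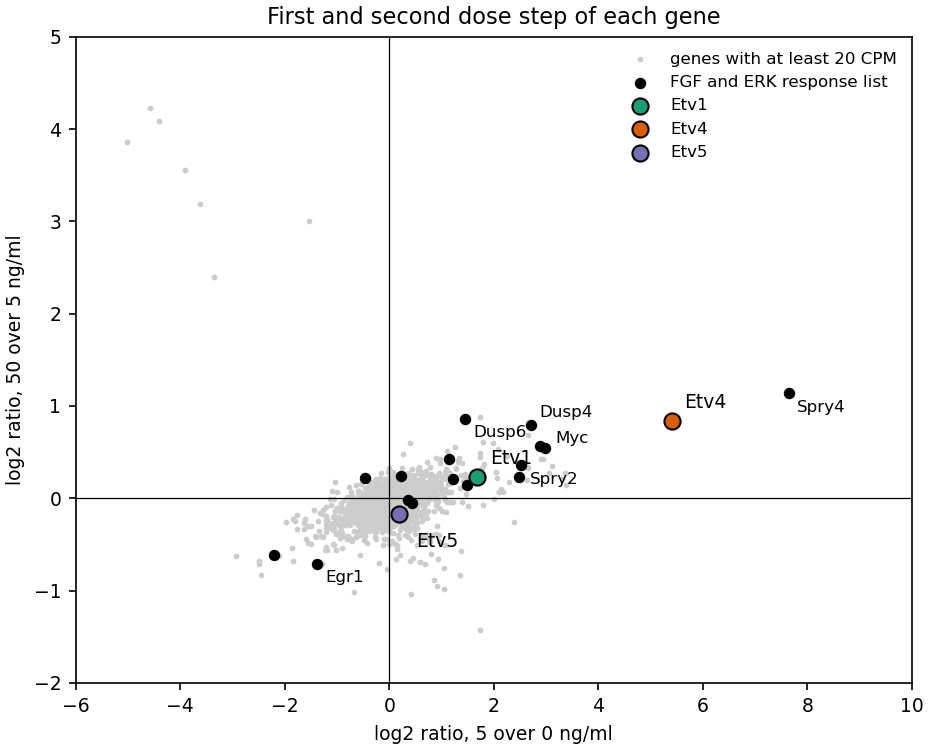
Each point is a gene, with its log2 ratio of 5 over 0 ng/ml on the horizontal axis and of 50 over 5 ng/ml on the vertical axis; grey marks genes with at least 20 CPM in a library, black the measured genes of the FGF and ERK response list. Etv4 sits at 5.41 and 0.84, Etv1 at 1.68 and 0.23, and Etv5 at 0.19 and -0.17 inside the grey cloud.

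The genes nearest to a member in these 2 log2 ratios, among 5538 genes with at least 20 CPM in a library and over 3 libraries, showed how crowded each pattern was. For Etv5 the nearest 5 were Actr1a, Ensa, Tubgcp5, Ppp1r15b and Hmga1b, at distances of 0.01 to 0.02. For Etv1 they were Mymx, Ddx58, Mcc, Dnmt3b and Bbs2, at 0.04 to 0.21. Mymx, a muscle cell fusion gene, stood at 31.0, 98.0 and 113 CPM, and Dnmt3b, a de novo DNA methyltransferase gene, at 56.7, 159 and 186 CPM. Etv4 had no gene that near. Its nearest were Dnmt3l, Gja1, Peg10, Spry4 and Enpp3, at distances of 2.12 to 2.36, and of those 5 only Spry4 had larger ratios than Etv4 at both steps, from 3 UMIs without ligand.

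None of the other measured ETS genes was as far above the library without ligand as Etv4. Of 24 other ETS family genes listed, 23 were in the table and 11 reached 5 CPM in at least 1 library. At 50 ng/ml 0 of the 11 stood 2-fold or more above the library without ligand and 2 stood as far below, beside 2.63% and 3.44% of all genes. The lower genes were Spic, of the SPI subgroup, at 10.4, 1.09 and 0.381 CPM, and Elf3, an epithelial ETS gene, at 36.3, 11.9 and 8.82 CPM. The difference in Elf3 between 0 and 50 ng/ml was 4.11-fold (3.76 to 4.50). The median log2 ratio of the 11 was -0.28, beside -0.01 for all genes. Among the ETS genes below 5 CPM, Elk3, of the ternary complex factor subgroup and named after its values were seen, was higher with ligand. It had 59, 257 and 233 UMIs and a ratio of 2.07 (1.55 to 2.81) at 50 ng/ml. Others below 5 CPM, also named after their values were seen, were past 2-fold lower at 50 ng/ml. The ratios were 0.470 (0.326 to 0.676) for Ets1 and 0.477 (0.354 to 0.642) for Elf4. Spib, with 20, 28 and 18 UMIs, had a ratio of 0.472. Ehf had 12, 1 and 1 UMIs and Spdef 11, 2 and 0. Ets2, a nuclear effector of RAS signalling, stood at 11.7, 6.82 and 7.01 CPM. Erf, an ETS repressor that ERK is known to move out of the nucleus, stood at 26.4, 29.9 and 30.4 CPM.

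Transcripts of proteins that act on PEA3 factors included none past 2-fold, in a list too short to set that apart from genes at large. Of 21 names on this list 20 were in the table and 18 were measured, and 0 were past 2-fold in either direction at 50 ng/ml, beside 6.07% of all genes. Their median log2 ratio was 0.02, beside -0.01. Cic, which encodes Capicua, was the lowest of the 18 at 37.0, 27.5 and 24.9 CPM, a 1.48-fold difference (1.39 to 1.59) between 0 and 50 ng/ml. Trib1, which encodes a pseudokinase that recruits COP1, was the highest in ratio, at 5.01, 7.67 and 8.30 CPM. Cop1 itself stood at 36.7, 39.2 and 37.7 CPM and Det1 at 9.95, 12.3 and 12.9 CPM. Med25, whose Mediator subunit binds the PEA3 activation domain, stood at 81.2, 84.7 and 80.1 CPM.

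**Figure D3:**
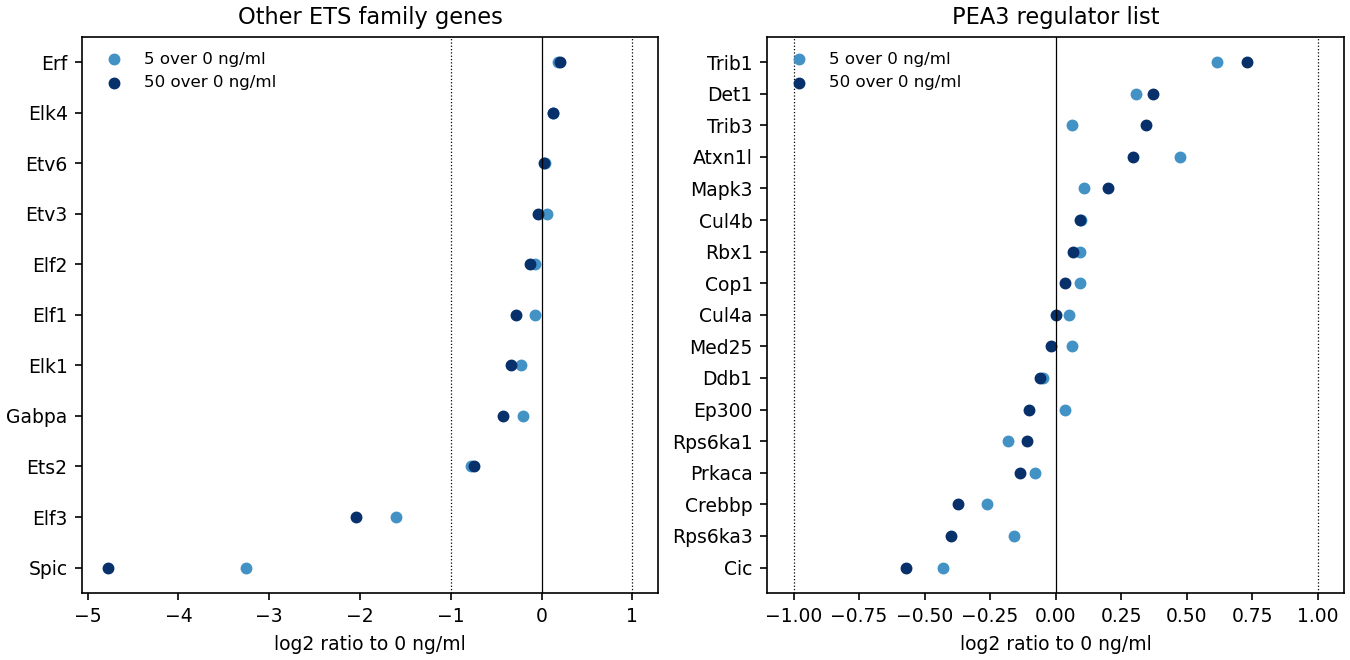
Log2 ratios to the library without ligand for the 11 measured ETS genes outside the PEA3 group (left) and measured genes of the PEA3 regulator list, 1 of them not shown (right); light points are 5 ng/ml, dark points 50 ng/ml, and dotted lines mark 2-fold. Spic and Elf3 lie past the 2-fold line on the lower side, and no gene drawn lies past it on the higher side.

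Upstream and beside the members, Fgfr1 and Fgfr2 were lower with ligand and 10 of 16 measured ERK response genes higher. Fgfr1 stood at 57.8, 43.3 and 38.4 CPM and Fgfr2 at 11.7, 3.95 and 2.94 CPM, so 1 of the 6 measured receptor and adaptor genes was past 2-fold below at 50 ng/ml, beside 3.44% of all genes. Of 25 FGF and ERK response genes other than the members, 16 were measured, 10 of them past 2-fold above at 50 ng/ml and 2 past 2-fold below, beside 2.63% and 3.44% of all genes. The list median log2 ratio was 1.59, close to the 1.92 of Etv1, well under the 6.25 of Etv4 and above the 0.02 of Etv5. The lower genes were Egr1, an immediate early gene, at 40.8, 15.6 and 9.57 CPM, and Rasgef1a, an exchange factor gene, at 7.77, 1.69 and 1.11 CPM. Of the 10 higher genes, Spry1, Spry4, Dusp4, Dusp6, Myc and Id1 passed the 5 CPM limit only with ligand. Of the lower genes, Rasgef1a passed it only without ligand. List genes below 5 CPM went both ways at 50 over 0 ng/ml. Fos (ratio 0.288) and Lif (0.363) were past 2-fold lower, and Spred3 (4.85) and Fosl1 (2.54) past 2-fold higher. The list was chosen with earlier results of these data known, so its direction is no independent evidence.

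Read cell by cell, Etv4 went from few cells to most cells, with higher counts per cell at the higher dose. Cells were thinned to 30000 UMIs each for this, which kept 362, 717 and 815 cells. Etv4 then had at least 1 UMI in 3.31% (1.72 to 5.72), 66.9% (63.4 to 70.4) and 86.9% (84.4 to 89.1) of cells from the lowest dose up. Unthinned, the shares were 7.77%, 77.1% and 86.6% of all cells. The median thinned cell held 0, 1 and 2 UMIs of Etv4, the 95th percentile 0, 4 and 6, and the highest cell 2, 12 and 13. Without ligand the 50 UMIs came from 29 cells, with at most 6 in a single cell. At both ligand doses the counts formed 1 run of values around a most frequent count of 0 UMIs at 5 ng/ml and 2 UMIs at 50 ng/ml, with no second peak.

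Etv1 had at least 1 thinned UMI in 22.4% (18.2 to 27.0), 50.6% (46.9 to 54.3) and 58.2% (54.7 to 61.6) of cells, against 44.2%, 70.1% and 74.3% unthinned. Etv5 was found in nearly every thinned cell, at 98.9% (97.2 to 99.7), 99.4% (98.6 to 99.8) and 99.3% (98.4 to 99.7), against 97.6%, 89.9% and 90.4% unthinned. The median cell held 5, 6 and 5 UMIs of Etv5 and the middle 90% of cells spanned 1 to 11, 2 to 12 and 2 to 11. The Etv5 curves of the 3 doses overlay each other over most of their range. The culture held no cell type known to lack these genes, so the part of free RNA in these shares could not be read from another cell type.

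**Figure D4:**
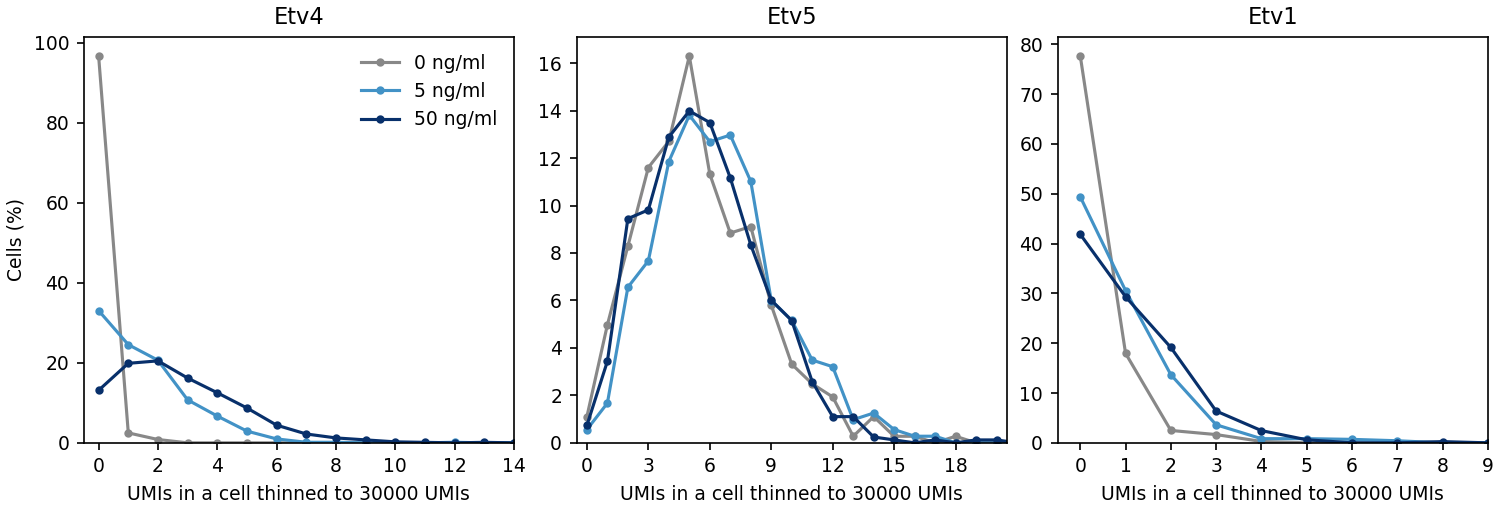
Percent of cells (vertical axis) by number of UMIs of Etv4, Etv5 or Etv1 in a cell thinned to 30000 UMIs (horizontal axis), 1 line per FGF4 dose, with 362, 717 and 815 cells. The Etv4 line moves from a spike at 0 UMIs to a broad run with a median of 2 UMIs at 50 ng/ml, while the Etv5 lines have medians of 5 or 6 UMIs at every dose.

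Barcodes under 30000 UMIs, which were left out of the thinned cells, numbered 11, 157 and 160 and carried 0.261%, 1.82% and 1.97% of each library's UMIs. Their median mitochondrial share was 94.4%, 45.3% and 82.5% of UMIs. At 50 ng/ml their summed Etv4 level was 62.9 CPM (51.2 to 76.4) and their Etv5 level 156 CPM (138 to 177), both below the 88.9 and 188 CPM of the library. Their Etv1 level was 28.7 CPM (21.0 to 38.2), an interval that holds the library's 31.4 CPM. Without ligand their Etv5 level was 188 CPM (117 to 288), an interval that holds the library's 186 CPM. These CPM are of all UMIs, mitochondrial ones included. At 5 ng/ml they held 27.8 CPM of Etv4 (19.7 to 38.1), and at 0 ng/ml they held no UMI of Etv4 among 111481, which allows up to 33.1 CPM.

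The spread of Etv4 and Etv1 among cells was wider than that of most genes at the same level. The Fano factor (variance over mean, 1 for pure counting noise) of Etv4 was 1.56 at 5 ng/ml and 1.57 at 50 ng/ml. Genes with a mean within 1.25-fold had median Fano factors of 1.13 and 1.18, and 94.4% of 1077 and 89.9% of 745 such genes lay below Etv4. Etv1 had Fano factors of 1.34, 1.54 and 1.29 and lay above 93.9%, 96.6% and 90.2% of genes at its level. Etv5 stood at 1.63, 1.43 and 1.46, above 83.3%, 68.2% and 71.4% of its peers. The Etv5 value at 50 ng/ml was 1.26 both with a second thinning seed and with filtered cells. That is below the 1.30 median of its peers under the main settings. Peers were not recomputed under the other settings, so the side of Etv5 was not settled. Etv1 at 5 ng/ml was 1.31 and 1.26 with that seed and with filtered cells, above the 1.10 median of its peers under the main settings. At Poisson spread and the same mean, 77.5% and 93.1% of cells would have held Etv4 at 5 and 50 ng/ml, against the 66.9% and 86.9% counted. Without ligand Etv4 had too few UMIs, in 12 thinned cells, for its Fano factor of 1.36 to be read.

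Within a dose, no strong relation between the members was seen across cells, at counts too low to exclude one. Across thinned cells the Pearson correlation of log2(UMI + 1) between Etv4 and Etv5 was 0.06, 0.05 and 0.003 at 0, 5 and 50 ng/ml, over 362, 717 and 815 cells. At 50 ng/ml the 107 cells with no Etv4 UMI held 5.76 UMIs of Etv5 per cell (5.31 to 6.23), and the 145 cells with 5 or more held 5.67 (5.29 to 6.07). At 5 ng/ml the matching values were 6.37 (6.05 to 6.70) in 237 cells and 7.19 (6.28 to 8.20) in 31 cells. Etv4 with Etv1 gave correlations of 0.10, 0.13 and 0.05, and Etv1 with Etv5 gave 0.06, 0.02 and -0.01. At a few UMIs per cell such correlations are small whether or not the transcripts vary together.

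Across cells of the same ligand dose, Etv4 and Etv1 were higher where the UMI sum of the formative genes was higher. Etv5 was higher where the UMI sum of the naive genes was higher. Cells were ranked into quintiles by their summed UMIs of a list, and the mean of each member was read in each quintile. The 10 formative genes mark the state after the naive one. Genes with high counts weigh most in their sum. At 5 ng/ml Utf1 stood at 281 CPM and Dnmt3b at 159 CPM, against 5.81 CPM for Otx2. The part of single list genes in the ratios was not tested. By this sum Etv4 went from 0.986 UMIs per cell in the lowest quintile to 2.03 in the highest at 5 ng/ml. The ratio was 2.06 (1.68 to 2.53). At 50 ng/ml Etv4 went from 1.90 to 3.45, a ratio of 1.82 (1.58 to 2.10), which was 1.49 to 1.75 under other thinnings and cell choices. Etv1 had ratios of 2.21 (1.04 to 5.00), 1.68 (1.29 to 2.21) and 1.36 (1.08 to 1.71) at 0, 5 and 50 ng/ml. No alternatives were run for these Etv1 ratios. Etv5 had ratios of 1.14 (0.995 to 1.31), 1.14 (1.04 to 1.25) and 0.999 (0.912 to 1.09) at 0, 5 and 50 ng/ml, so at 5 ng/ml it was also slightly higher with the formative genes.

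By the summed UMIs of the 10 naive genes, Etv5 was higher in the highest quintile than in the lowest in every library. Genes with high counts weigh most in this sum. At 50 ng/ml Zfp42 stood at 484 CPM and Klf2 at 312 CPM, against 103 CPM for Nanog and 49.5 CPM for Esrrb. The part of Zfp42 or Klf2 alone in the difference was not tested. Etv5 went from 4.33 to 6.00 UMIs per cell at 0 ng/ml, from 5.28 to 7.34 at 5 ng/ml and from 4.85 to 6.64 at 50 ng/ml. These were ratios of 1.39 (1.20 to 1.61), 1.39 (1.26 to 1.53) and 1.37 (1.25 to 1.50). Under other thinnings and cell choices the ratio was lower, at 1.22 to 1.27 for 5 ng/ml and 1.32 to 1.36 for 50 ng/ml. Etv4 had ratios of 0.793 (0.650 to 0.965) at 5 ng/ml and 0.921 (0.801 to 1.06) at 50 ng/ml. Etv1 had 2.32 (1.20 to 4.70), 0.880 (0.682 to 1.14) and 0.849 (0.674 to 1.07) at 0, 5 and 50 ng/ml. Etv5 also went with the 15 genes of G2 and M phase, with ratios of 1.35 (1.16 to 1.57), 1.34 (1.22 to 1.48) and 1.19 (1.08 to 1.30). Etv1 did so at 5 ng/ml, with 1.48 (1.14 to 1.92), and at 50 ng/ml, with 1.31 (1.04 to 1.65). The part of the cell cycle in the differences by naive or formative genes was not tested.

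Among the 25 FGF and ERK response genes, Ccnd1 had the most counts, at 199 CPM at 50 ng/ml, 1.27-fold its level without ligand. By the summed UMIs of this list, Etv4 differed by 1.43-fold (1.18 to 1.73) at 5 ng/ml and 1.43-fold (1.25 to 1.63) at 50 ng/ml between the outer quintiles. Etv5 differed by 1.04-fold (0.949 to 1.14) and 1.21-fold (1.10 to 1.33). Etv1 had ratios of 1.19 (0.916 to 1.55) and 1.00 (0.791 to 1.26), both with intervals that include 1. As correlations across cells these relations were weak, at 0.28 and 0.25 for Etv4 with the formative sum at 5 and 50 ng/ml. Etv5 with the naive sum gave 0.29, 0.20 and 0.22 at 0, 5 and 50 ng/ml. With the sum of the G2 and M phase genes it gave 0.19, 0.22 and 0.12. The library without ligand held too few Etv4 UMIs for its quintiles to be compared.

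**Figure D5:**
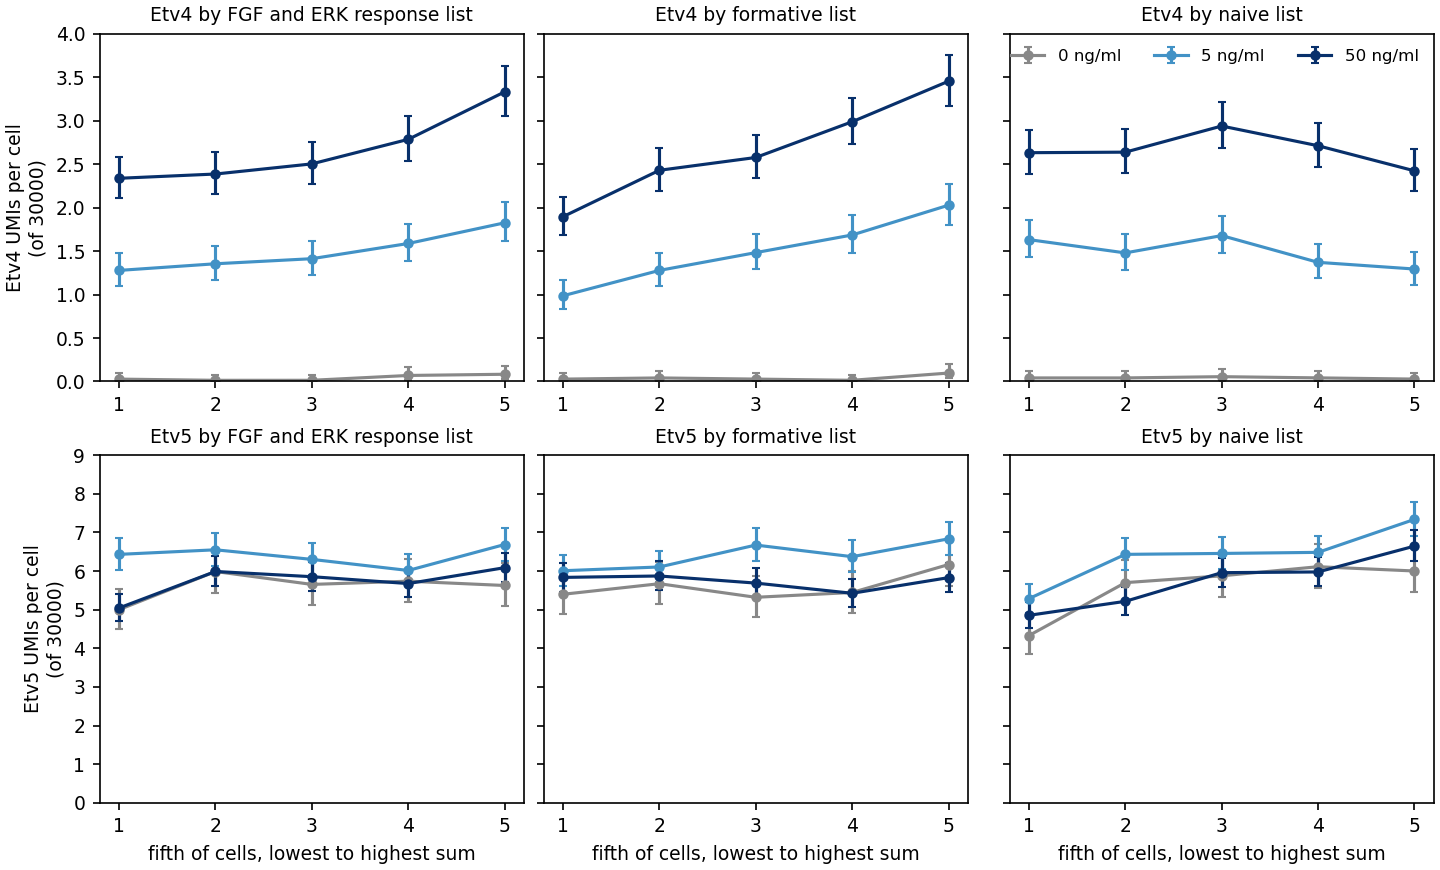
Mean UMIs per thinned cell of Etv4 (top) and Etv5 (bottom) in quintiles of cells ranked by the summed UMIs of the FGF and ERK response list, the formative list or the naive list; lines are FGF4 doses and bars are 95% intervals for counting error. Etv4 climbs with the formative sum, from 1.90 to 3.45 UMIs per cell at 50 ng/ml, and Etv5 climbs with the naive sum, from 4.85 to 6.64.

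The genes most like each member across cells at 50 ng/ml were ranked by Pearson correlation over 815 cells and 8071 genes. For Etv4 they were Cdx1, a caudal homeobox gene (0.28), Mkrn1, a ubiquitin ligase gene (0.27), Tcf15, a transcription factor gene of the formative list (0.23), H2afz, a histone variant gene (0.23), and Jarid2, a Polycomb partner gene (0.23). At 5 ng/ml, in cells that the ranking did not use, the same 5 gave 0.16, 0.23, 0.12, 0.17 and 0.14. For Etv5 they were Zfp42, a naive list member also called Rex1 (0.22), Jarid2 (0.19), Rif1 (0.19), Kat6b (0.18) and Stk38 (0.18). The same genes gave 0.17, 0.17, 0.17, 0.11 and 0.05 at 5 ng/ml and 0.31, 0.13, 0.17, 0.20 and 0.05 without ligand. For Etv1 they were Meg3, Nt5e, Hk2, Gja1 and Khdrbs1, at 0.14 to 0.16. The same genes gave 0.05, 0.16, 0.02, 0.17 and 0.12 at 5 ng/ml and 0.15, -0.05, 0.01, 0.06 and -0.01 without ligand, so several did not recur. At 50 ng/ml the middle 95% of all genes ran from -0.08 to 0.11 for Etv4 and from -0.07 to 0.10 for Etv5.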

How the data were processed

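The deposited matrices hold raw UMI counts per gene and cell barcode from 3 libraries, and the file headers name Cell Ranger 4.0.0. The genome build was mm10, per the submitters' processing notes. How cells were called, and with which annotation release reads were counted, is not given in the sources used here. Gene coordinates come from GENCODE M21 (GRCm38), in which 32158 of 32285 gene identifiers matched.

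UMIs were summed over cells and scaled to the library total (CPM). Ratios carry 95% conditional binomial intervals, levels exact Poisson intervals and shares exact Clopper-Pearson intervals, all for counting error only. A sum of 0 UMIs was set to 3 in log2 ratios (0.0702, 0.0399 and 0.0369 CPM at 0, 5 and 50 ng/ml). Genes counted as measured reached 5 CPM in at least 1 library, and the fold limit was 2. Cells were thinned without replacement to 30000 UMIs, deeper than 7000 because Etv1 and Etv4 are low. Scrublet in scanpy 1.11.5 called 12, 7 and 26 doublets, which stay in except in an alternative, and edgeR 4.0.16 gave TMM factors. The scripts were tested on simulated data.

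Named genes were the members, the 5 nearest to each in dose ratios and in cells (predicted and ribosomal protein genes left out), their neighbours on the chromosome, list genes past 2-fold and the regulator list. For the other lists the genes named as examples were chosen after their values were seen. The members and lists were chosen with earlier results of these data known. Alternatives were other scalings, the mean share per cell, cell choices, thinning depths, seeds, limits and Spearman correlation. The values of 1 regulator gene are not reported here.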

Additional observations from a re-analysis of the deposited data

How the results depend on the processing

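The 9 dose ratios had 63 values under other scalings, the mean share per cell and other cell choices. Of these, 58 lay inside the interval of the main value and none changed side where that interval excluded 1. Outside it were Etv4 at 50 over 5 ng/ml with equal numbers of cells (1.70), Etv5 by the mean share per cell (1.08 for 5 over 0 and 0.957 for 50 over 0) and Etv5 by median of ratios (1.04 for 50 over 0 and 0.913 for 50 over 5). Etv4 over 0 ng/ml ran from 34.0 to 42.8 at 5 ng/ml and from 60.2 to 78.2 at 50 ng/ml, resting on 50 UMIs without ligand. The Etv4 percent of both genes' UMIs at 50 ng/ml was 31.5% as a mean share per cell. The correlation of Etv4 with Etv5 at 5 ng/ml was -0.0229 when cells were thinned to 7000 UMIs. With members of at least 20 CPM, 5 FGF and ERK genes stood past 2-fold above at 50 ng/ml (10 in the main count) and 1 ETS gene was 2-fold apart (2 in the main count); the stricter limit tests fewer genes. Shares of cells with a UMI and Fano factors scale with depth, and 18 of 18 lay outside their main interval at 7000 UMIs and 16 of 18 at 60000 UMIs. At 60000 UMIs Etv4 was in 5.23%, 83.3% and 96.2% of cells. A second thinning seed moved 4 of 18 such values past their interval. Alternatives added after seeing the data were run for 8 ratios of the outer quintiles (Etv4 by the formative and the FGF and ERK lists, Etv5 by the naive and the FGF and ERK lists, at 5 and 50 ng/ml), and those with an interval excluding 1 kept their direction, with Etv4 by the formative list at 50 ng/ml lowest at 1.49 without called doublets and Etv5 by the naive list at 5 ng/ml lowest at 1.22 with the second seed. No paired analysis was possible because each dose was 1 library.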
